A study of Mus musculus with 12 samples.

Results

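The genes described here encode the proteasome, the protease that degrades ubiquitin-tagged proteins in the cytoplasm and nucleus, in injured muscle of dystrophic mice. They were chosen by symbol (Psma, Psmb, Psmc, Psmd, Psme or Psmf followed by a digit, without Psmb8 and Psmb9) and by a mean of at least 1 log2 CPM (the logarithm of reads scaled to a common library size) over all 12 libraries. Of 28116 gene symbols, 49 match the symbol pattern. Of these, 2 were excepted by name, 7 lay below the level and 40 were members. Just inside the level was Psmd10 at 4.02 log2 CPM and just outside it was Psmc3ip at 0.95 log2 CPM, whose product is not a proteasome subunit. The other symbols below the level were Psme2b at 0.69 log2 CPM, the testis subunit Psma8 at -2.86 log2 CPM, the thymus subunit Psmb11 at -3.85 log2 CPM and the pseudogene symbols Psmb6-ps2, Psmb7-ps2 and Psmb5-ps. The members comprised 15 genes of the core, namely 7 of its outer (alpha) rings, 7 constitutive genes of its inner (beta) rings and the immune beta subunit Psmb10. The regulatory particle had 6 ATPases and 11 non-ATPases. The others were 4 activators (Psme1 to Psme4), the inhibitor Psmf1, and Psmd5, Psmd9 and Psmd10, which carry subunit symbols but are assembly chaperones of the regulatory particle. All 40 were tested in every comparison.

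RNA of the tibialis anterior muscle was sequenced from 4-month-old mice of the strain C57BL/10ScSn-Dmdmdx/J, which carry the mdx mutation and make almost no dystrophin in their muscle fibres. Every muscle had been injured with cardiotoxin, a venom component that lyses fibres and starts regeneration, so the design holds no uninjured muscle and no muscle without the mdx mutation. Along with the toxin went either anti-miR-106b, which blocks the microRNA miR-106b, or a scrambled inhibitor, and the question was what this blockade changes during regeneration. There were 4 groups of 3 libraries: muscles given anti-miR-106b and collected at day 7, muscles given the scrambled inhibitor and collected at day 7, and the same pair collected at day 3 after injection. The replicates are described as animals. Whether an animal gave muscles to more than 1 group is not stated, so p-values measure the spread between these libraries. The design text mentions day 5 once in place of day 7, and the labels of the libraries were followed.

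The proteasome is a barrel whose outer rings gate access to a chamber lined by the catalytic beta subunits. A regulatory particle docks on the barrel, recognises ubiquitin chains, removes them, and unfolds the substrate with a ring of ATPases. Interferon induces alternative catalytic subunits and an activator that together shift cleavage towards peptides presented on major histocompatibility class I molecules, and in skeletal muscle the proteasome takes part in the loss of contractile protein during wasting.

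The inhibited microRNA, whose seed (bases 2 to 8, in capitals) pairs with target transcripts, is encoded on the minus strand of chromosome 5 at chr5:138165787-138165807 (GRCm38.p6, sequence from RefSeq).
mmu-miR-106b-5p: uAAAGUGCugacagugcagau
A perfect match to this seed was found in the longest annotated 3′ UTR of 2 of the 40 proteasome genes, or 5.0%, against 1937 of 12955 tested genes with a 3′ UTR, or 14.95%. The proteasome genes' 3′ UTRs were shorter, with a median of 416.5 bases against 1370 bases. The sites lie in the UTRs of Psmd2, a scaffold subunit of the regulatory particle, and of Psmf1, and the match is in capitals.
Psmd2: atctgtagtgaGCACTTTgactctaagga
Psmf1: gtaaataaataGCACTTTataacctgttt
Neither gene passed the test for the inhibitor at day 3, with log2 fold changes of 0.00 ± 0.08 for Psmd2 and 0.11 ± 0.07 for Psmf1 (± SE, limma, adjusted p = 0.977 and 0.219). A seed match is a description of letters and does not show binding.

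Promoters are shown for the genes with the largest changes described below, the immune subunit Psmb10 and the activators Psme1, Psme2 and Psme4, and for the constitutive catalytic subunit Psmb5, which has the highest level per length. Each window runs from 250 bases before to 50 bases after a RefSeq transcription start (GRCm38.p6), and capitals mark a match, on either strand, to GAAA, any 2 bases and GAAA (the core of the interferon-stimulated response element) or TGACNNNGC (the core of the antioxidant response element, which the transcription factors Nfe2l1 and Nfe2l2 bind). The windows are chr8:105938343-105938642 on the minus strand for Psmb10, chr14:55578244-55578543 on the plus strand for Psme1, chr14:55591052-55591351 on the minus strand for Psme2, chr11:30771525-30771824 on the plus strand for Psme4 and chr14:54617946-54618245 on the minus strand for Psmb5.
Psmb10: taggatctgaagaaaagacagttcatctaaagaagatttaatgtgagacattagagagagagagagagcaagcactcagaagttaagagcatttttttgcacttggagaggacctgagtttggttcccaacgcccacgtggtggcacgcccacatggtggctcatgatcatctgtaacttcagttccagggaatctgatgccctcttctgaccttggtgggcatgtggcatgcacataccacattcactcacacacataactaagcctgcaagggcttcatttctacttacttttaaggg
Psme1: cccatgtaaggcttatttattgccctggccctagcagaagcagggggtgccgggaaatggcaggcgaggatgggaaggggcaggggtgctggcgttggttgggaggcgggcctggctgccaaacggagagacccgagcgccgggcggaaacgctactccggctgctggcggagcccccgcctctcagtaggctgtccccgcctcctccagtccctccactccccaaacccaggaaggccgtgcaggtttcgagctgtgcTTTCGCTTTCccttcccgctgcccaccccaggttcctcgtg
Psme2: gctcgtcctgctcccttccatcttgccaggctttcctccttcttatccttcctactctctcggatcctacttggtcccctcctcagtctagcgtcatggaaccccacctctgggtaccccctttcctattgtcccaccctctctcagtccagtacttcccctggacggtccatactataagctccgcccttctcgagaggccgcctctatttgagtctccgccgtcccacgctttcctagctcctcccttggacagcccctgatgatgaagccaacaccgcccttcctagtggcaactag
Psme4: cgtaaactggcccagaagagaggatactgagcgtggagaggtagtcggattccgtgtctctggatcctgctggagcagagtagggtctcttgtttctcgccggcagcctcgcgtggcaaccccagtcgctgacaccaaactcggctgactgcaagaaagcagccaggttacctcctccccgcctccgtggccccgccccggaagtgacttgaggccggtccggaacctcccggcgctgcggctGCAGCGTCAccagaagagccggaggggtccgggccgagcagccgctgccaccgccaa
Psmb5: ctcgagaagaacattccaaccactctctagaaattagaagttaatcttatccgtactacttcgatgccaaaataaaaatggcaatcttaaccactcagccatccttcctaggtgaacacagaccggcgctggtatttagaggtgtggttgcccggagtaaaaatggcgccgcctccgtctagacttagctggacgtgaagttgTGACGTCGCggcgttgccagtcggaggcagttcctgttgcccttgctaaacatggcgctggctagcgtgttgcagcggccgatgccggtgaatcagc
Promoter windows were matched for 34 of the 40 genes (37 windows). The interferon element was present in 4 of the 37 windows, or 10.8%, against 3.44% of all 32851 windows. The genes were Psmd4, Psmd9, Psmb3 and Psme1. TGACNNNGC was present in 6 of the 37, or 16.2%, against 12.4% of all windows, in Psmd9, Psme4, Psmb6, Psmd12, Psmc6 and Psmb5. CCAAT, the letters bound by the factor NF-Y, was present in 12 of the 37, or 32.4%, against 37.4% of all windows, and in 5 of the 7 alpha ring genes (Psma7, Psma1, Psma3, Psma6 and Psma2). Matches to different motifs did not overlap in a member's window, while in Psmd14 the matches to CCAAT on the plus and minus strands overlap each other. The windows of Psmb10 and Psme2 hold none of the 3 motifs. These are matches of letters, not sites of binding.

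The 12 libraries held 28857739 to 42825246 reads. The authors' scaling factors, by which library sizes had been multiplied, were 0.803 to 0.887 at day 7, 1.26 to 1.32 in anti-miR-106b muscles at day 3 and 1.09 to 1.15 in scrambled muscles at day 3. They differed between groups without overlap at day 3 and between days, which bears on the direction of small changes and is taken up with each result. Mitochondrial genes took 9.94 to 10.7% of reads in anti-miR-106b muscles at day 7, 8.18 to 10.5% in scrambled muscles at day 7, 4.80 to 4.83% in anti-miR-106b muscles at day 3 and 7.54 to 7.76% in scrambled muscles at day 3. All 14 muscle fibre genes, such as Acta1, Ckm and Mylpf, were detected in every library. Their summed level was 208636 to 234647 CPM and 225414 to 243268 CPM in anti-miR-106b and scrambled muscles at day 7, against 75503 to 82117 CPM and 116441 to 138285 CPM in anti-miR-106b and scrambled muscles at day 3. Whole muscle was sequenced, so fewer cells of a type and less RNA per cell cannot be told apart in any result that follows. Scrambled replicate 3 at day 7 stood lowest of its group in the mean level of the 14 constitutive core genes (6.96 log2 CPM, against 7.12 and 7.18 log2 CPM in the other 2 libraries), and results that turn on it are given without it.

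Per kilobase of exon, which allows levels of different genes to be compared, Psmb5, the beta subunit with chymotrypsin-like activity, had the highest level of the 40 genes in each of the 4 groups. It averaged 189 ± 19.3 CPM per kb in anti-miR-106b and 185 ± 4.00 CPM per kb in scrambled muscles at day 7, and 132 ± 6.63 CPM per kb in anti-miR-106b and 149 ± 3.67 CPM per kb in scrambled muscles at day 3 (SD, n = 3 each). The ATPase Psmc5 followed at 144 and 140 CPM per kb in anti-miR-106b and scrambled muscles at day 7 and at 111 and 113 CPM per kb at day 3. In anti-miR-106b muscles at day 3 another ATPase, Psmc3 (116 CPM per kb), stood between them. The lowest was Psmf1, which encodes a proteasome-binding inhibitor, at 3.04 and 2.98 CPM per kb in anti-miR-106b and scrambled muscles at day 7, and 2.78 and 2.57 CPM per kb in anti-miR-106b and scrambled muscles at day 3. The chaperones Psmd5 and Psmd9 lay between 3.41 and 5.25 CPM per kb in the 4 groups and Psmd10 between 9.61 and 12.7 CPM per kb. Between these ends, group medians were 69.2 to 85.2 CPM per kb for the 7 constitutive beta genes, 66.6 to 80.8 for the 6 ATPases, 37.9 to 58.6 for the 11 non-ATPases, 36.5 to 45.8 for the 7 alpha genes and 22.2 to 28.2 for the 4 activators. These values depend on annotated exon length, since isoforms were not counted apart.

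The order of the genes differed between groups for the immune subunit and the activators, and for constitutive genes as well. Psmb10, the immune subunit that takes the place of the trypsin-like subunit Psmb7, had 14.5 ± 2.52 and 13.5 ± 0.704 CPM per kb in anti-miR-106b and scrambled muscles at day 7, and 36.8 ± 3.27 and 23.1 ± 1.01 CPM per kb in anti-miR-106b and scrambled muscles at day 3 (SD, n = 3 each). Psmb7 itself had 56.4 ± 1.64 and 55.5 ± 5.29 CPM per kb in anti-miR-106b and scrambled muscles at day 7, and 35.7 ± 0.513 and 40.8 ± 2.50 CPM per kb in anti-miR-106b and scrambled muscles at day 3. Per length, Psmb10 differed from Psmb7 by less than the spread of libraries in anti-miR-106b muscles at day 3 and was below it in the other 3 groups. This rests on annotated exon lengths of 1705 bases for Psmb10 and 3421 bases for Psmb7. Without regard to length, anti-miR-106b libraries at day 3 held 3069, 2961 and 2141 reads of Psmb10 and 5817, 5380 and 4602 of Psmb7. Psme4, an activator known for the degradation of acetylated histones, ranked 26th and 25th of the 40 genes at day 7 and 34th and 32nd at day 3 in anti-miR-106b and scrambled muscles, whereas Psme1 ranked 35th and 34th at day 7 and 22nd and 27th at day 3. In the same groups Psmb10 ranked 36th and 36th at day 7 and 23rd and 31st at day 3, and Psmb7 19th and 17th at day 7 and 26th and 18th at day 3.

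The largest fold changes of the inhibitor at day 3 were those of the immune subunit Psmb10 and of 3 of the 4 activators. Of the 40 genes, 5 rose (Psmb10, Psme1, Psme2, Psma7 and Psmb3) and 1 fell (Psme4) in anti-miR-106b against scrambled muscles (limma, adjusted p below 0.05 over all 14063 genes tested). Over all genes tested, 16.3% rose and 19.4% fell, 35.7% in either direction. With the authors' factors the share of proteasome genes that passed, 6 of 40, was below that of all genes. The median log2 fold change was 0.06 over the 40 genes and 0.01 over all genes tested. With library sizes set by total reads in place of the authors' factors, the median of all genes was 0.20 and 38 of the 40 log2 fold changes were positive (28 with the authors' factors). Then 33 of the 40 genes rose and 0 fell, against 5189 and 1377 of all 14191 genes tested. The share of proteasome genes that passed was then above that of all genes. With quantile normalization 12 of the 40 rose and 1 fell, against 2796 and 3239 of all 14063 genes tested.

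Psmb10 had 6.03, 6.06 and 5.82 log2 CPM in anti-miR-106b and 5.37, 5.24 and 5.29 in scrambled muscles at day 3. The anti-miR-106b libraries all lay above the scrambled ones, and the log2 fold change was 0.67 ± 0.11 (SE, limma adjusted p = 0.000416). Psme1, a subunit of the interferon-induced activator ring, had 6.48, 6.33 and 6.27 log2 CPM in anti-miR-106b and 5.92, 5.91 and 5.85 in scrambled muscles at day 3, again without overlap, with a log2 fold change of 0.46 ± 0.07 (adjusted p = 0.000332). Its partner in the ring, Psme2, had 6.32, 6.30 and 6.35 log2 CPM in anti-miR-106b and 5.94, 5.96 and 5.88 in scrambled muscles at day 3. Here too the groups did not overlap, and the log2 fold change was 0.40 ± 0.08 (adjusted p = 0.00191). These 3 calls held under each of the 24 alternatives tried. Psme2 is uncertain in so far as it shares sequence with Psme2b and reads may be split between them. The excepted immune subunits Psmb8 and Psmb9 averaged 5.57 and 4.80 log2 CPM in anti-miR-106b and 4.66 and 3.98 log2 CPM in scrambled muscles at day 3.

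**Figure D1:**
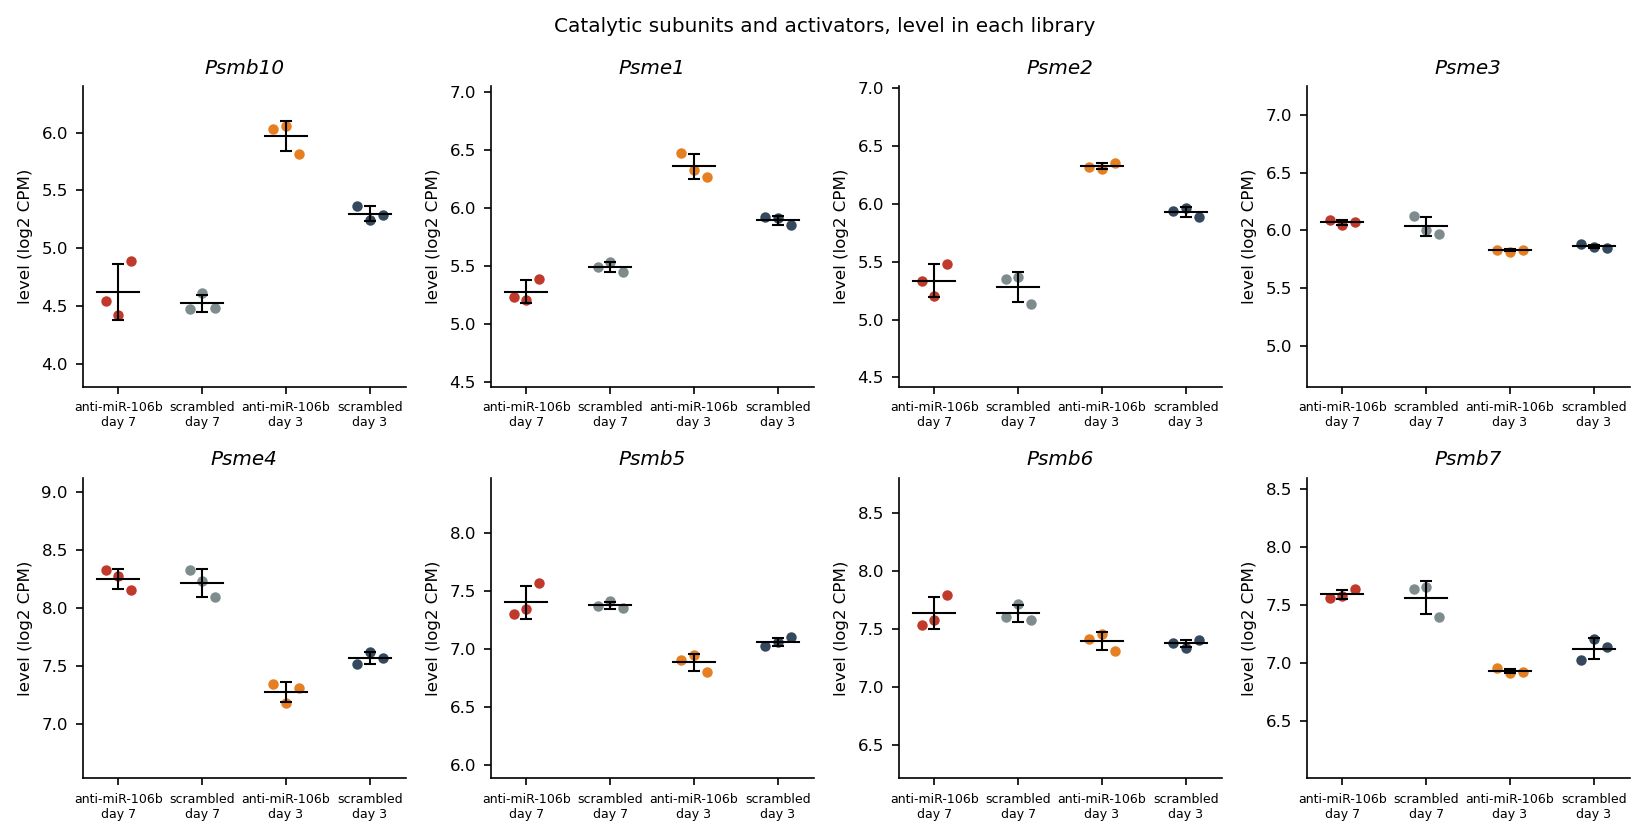
Level in log2 CPM (vertical axis) of the immune subunit Psmb10, the 4 activators and the catalytic subunits Psmb5, Psmb6 and Psmb7 in the 4 groups; points are libraries, lines are means and bars are SD (n = 3), and all panels span the same range. Psmb10, Psme1 and Psme2 were highest in anti-miR-106b muscles at day 3, where Psme4 was lowest; Psmb6 lay between 7.31 and 7.79 in all 12 libraries.

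Psme4 went the other way, with 7.35, 7.18 and 7.30 log2 CPM in anti-miR-106b and 7.51, 7.61 and 7.57 in scrambled muscles at day 3. The anti-miR-106b libraries all lay below the scrambled ones, with a log2 fold change of -0.29 ± 0.07 (limma adjusted p = 0.00849); this call was lost with total-count scaling (adjusted p = 0.246). The nuclear activator Psme3 had 5.83, 5.82 and 5.83 log2 CPM in anti-miR-106b and 5.88, 5.86 and 5.85 in scrambled muscles at day 3, without overlap but with a log2 fold change of -0.03 ± 0.06 (adjusted p = 0.66). Total-count scaling turns the value positive.

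Among the constitutive core genes, values differed little in size and in both directions. The alpha ring gene Psma7 had 7.01, 7.10 and 7.01 log2 CPM in anti-miR-106b and 6.72, 6.83 and 6.74 in scrambled muscles at day 3, a log2 fold change of 0.28 ± 0.08 (limma adjusted p = 0.0146). It lost its call without anti-miR-106b replicate 2 or without scrambled replicate 3 at day 3, with an adjusted p of up to 0.0625. Psma6, the alpha ring gene with the lowest fold change, had 6.87, 6.94 and 6.85 log2 CPM in anti-miR-106b and 6.87, 6.98 and 6.92 in scrambled muscles at day 3, which overlapped (-0.04 ± 0.07, adjusted p = 0.712). The structural beta subunit Psmb3 had 7.17, 7.17 and 7.12 log2 CPM in anti-miR-106b and 6.92, 6.91 and 6.87 in scrambled muscles at day 3, which did not overlap and gave a log2 fold change of 0.26 ± 0.07 (adjusted p = 0.0118).

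The 3 constitutive catalytic subunits did not pass. Psmb7, with trypsin-like activity, had 6.95, 6.92 and 6.92 log2 CPM in anti-miR-106b and 7.03, 7.21 and 7.14 in scrambled muscles at day 3. Psmb5 had 6.91, 6.95 and 6.80 log2 CPM in anti-miR-106b and 7.03, 7.06 and 7.10 in scrambled muscles at day 3. In both, all anti-miR-106b libraries lay below all scrambled ones, with log2 fold changes of -0.19 ± 0.07 (limma adjusted p = 0.0518) and -0.18 ± 0.07 (adjusted p = 0.065). Psmb6, with caspase-like activity, had 7.41, 7.46 and 7.31 log2 CPM in anti-miR-106b and 7.38, 7.34 and 7.41 in scrambled muscles at day 3 and overlapping groups (0.02 ± 0.07, adjusted p = 0.877). Of the remaining core genes, Psma5 (0.17) and the structural subunit Psmb2 (0.24) had adjusted p = 0.058 and 0.0565, and Psma1, Psma2, Psma3, Psma4, Psmb1 and Psmb4 had log2 fold changes of -0.02 to 0.09. With total-count scaling the negative values of Psma6, Psma3 and Psmb5 turn positive.

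None of the 17 regulatory particle genes passed at day 3 in limma at an adjusted p below 0.05, while 2 had an unadjusted p below 0.05, against 46.1% of all genes tested. Their log2 fold changes ran from -0.13 to 0.17 with a median of 0.03 and an SD across genes of 0.09, against an SD of 0.39 across all genes tested. The ends of this range were 2 non-ATPases. Psmd4, a receptor for ubiquitin chains, had 7.61, 7.56 and 7.46 log2 CPM in anti-miR-106b and 7.41, 7.36 and 7.35 in scrambled muscles at day 3; the groups did not overlap (0.17 ± 0.07, adjusted p = 0.0769). Psmd6, a lid subunit, had 6.83, 6.82 and 6.85 log2 CPM in anti-miR-106b and 6.88, 7.00 and 7.00 in scrambled muscles at day 3, also without overlap (-0.13 ± 0.06, adjusted p = 0.109), and with total-count scaling its value turns positive.

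Among the ATPases, which unfold substrates and thread them into the core, the ends were Psmc4 and Psmc6. Psmc4 had 7.03, 7.08 and 6.91 log2 CPM in anti-miR-106b and 6.86, 6.87 and 6.85 in scrambled muscles at day 3 (0.15 ± 0.07, limma adjusted p = 0.118). Psmc6 had 6.91, 6.83 and 6.92 log2 CPM in anti-miR-106b and 6.93, 7.00 and 7.01 in scrambled muscles at day 3 (-0.09 ± 0.05, adjusted p = 0.193). Psmc4 did not overlap between groups, with anti-miR-106b higher, and neither did Psmc6, with anti-miR-106b lower. The ATPases Psmc1, Psmc2, Psmc3 and Psmc5 lay between -0.02 and 0.12 on the log2 scale. The scaffolds Psmd1 and Psmd2 had -0.07 and 0.00, the lid subunits Psmd3, Psmd7, Psmd8, Psmd11, Psmd12 and Psmd13 had -0.05 to 0.17, and the deubiquitinase Psmd14 had 0.07. With total-count scaling all 17 values are positive. Over all 40 genes the groups did not overlap in 16 genes that were higher and 8 that were lower in anti-miR-106b muscles, against 31.2% higher and 29.3% lower of all genes tested (60.5% in either direction).

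**Figure D2:**
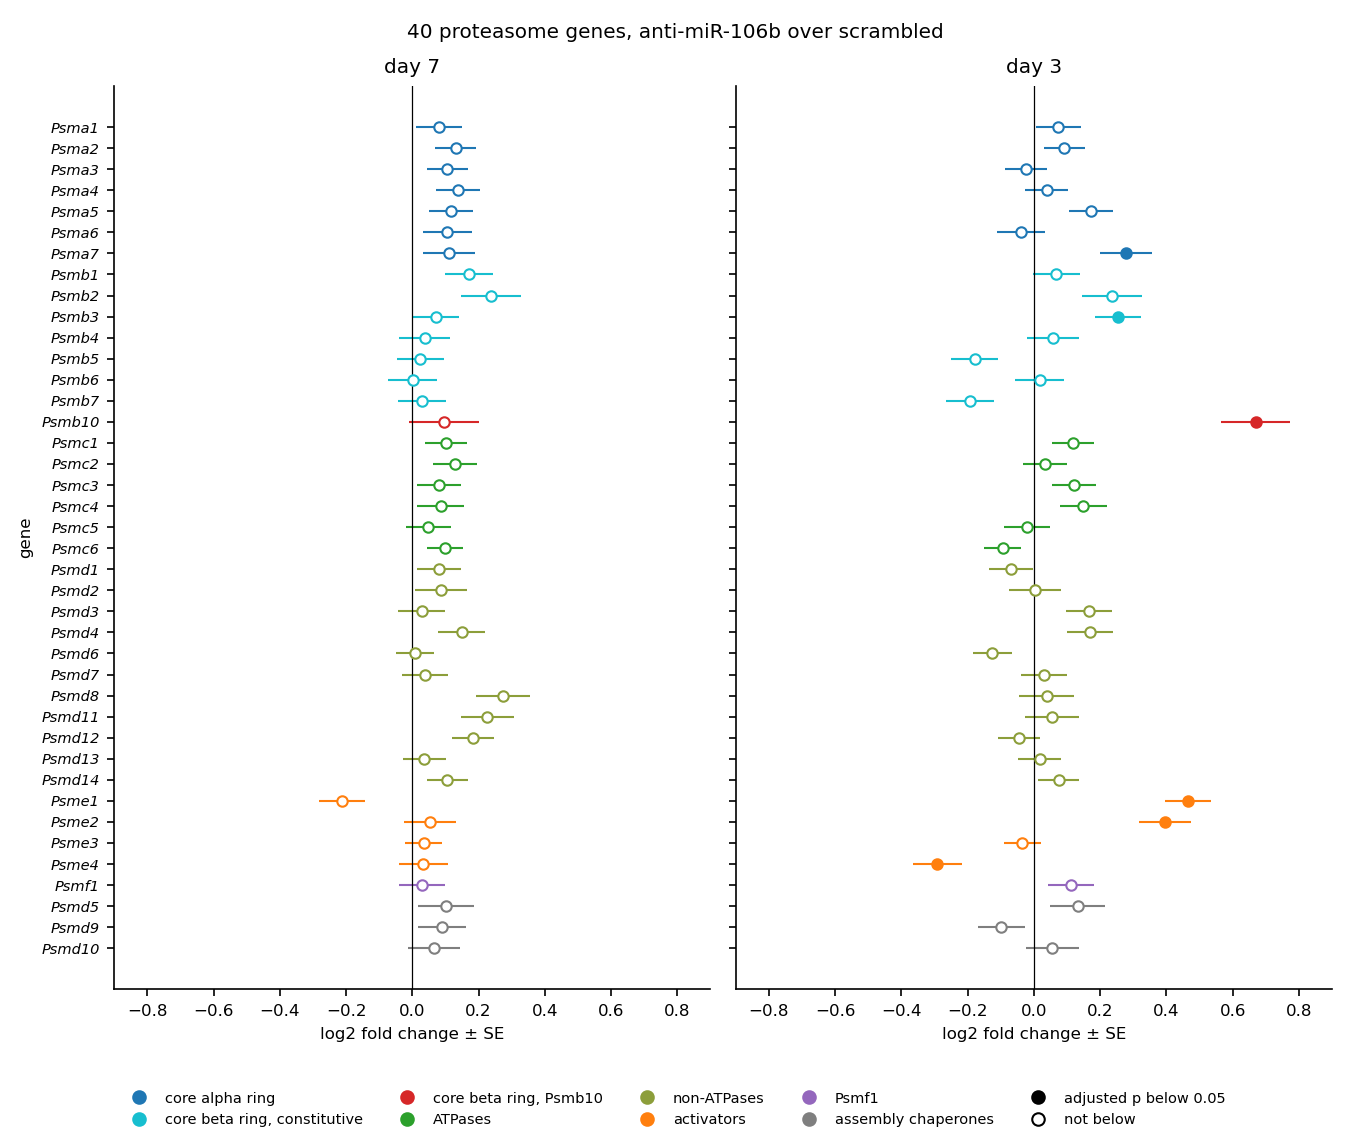
Log2 fold change of anti-miR-106b over scrambled (horizontal axis, bars are SE) for each of the 40 genes, at day 7 on the left and day 3 on the right, coloured by class; filled points passed limma at an adjusted p below 0.05. The genes that stand apart at day 3 are Psmb10 (0.67), Psme1 (0.46) and Psme2 (0.40) above the rest and Psme4 (-0.29) below it, and at day 7 no point is filled. With total-count scaling 33 of the 40 genes pass at day 3, all higher, against 5189 higher and 1377 lower of all 14191 genes tested.

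Because the authors' scaling factors differed between the groups, the same differences were taken within each library, against the mean of the 14 constitutive core genes. Such a difference is free of the factor by which a library is scaled; its level depends on transcript length, but its change between groups does not. Psmb10 minus the core mean was -0.97, -0.95 and -1.13 in anti-miR-106b and -1.53, -1.70 and -1.64 in scrambled muscles at day 3, a shift of 0.61 ± 0.08 (SE). Psme1 shifted by 0.40 ± 0.06, Psme2 by 0.34 ± 0.04, Psme3 by -0.095 ± 0.03 and Psme4 by -0.35 ± 0.06, in each case without overlap between the groups. Psmb10 minus Psmb7, which occupy the same place in the ring, shifted by 0.86 ± 0.11. Against Psmb6, the same libraries had Psmb5 lower by 0.20 ± 0.02 and Psmb7 lower by 0.21 ± 0.08, both without overlap. The regulatory particle mean minus the core mean shifted by -0.02 ± 0.01, with overlapping groups. An exact permutation test of 3 against 3 libraries cannot give a p below 0.1, so no p is attached to these differences.

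**Figure D3:**
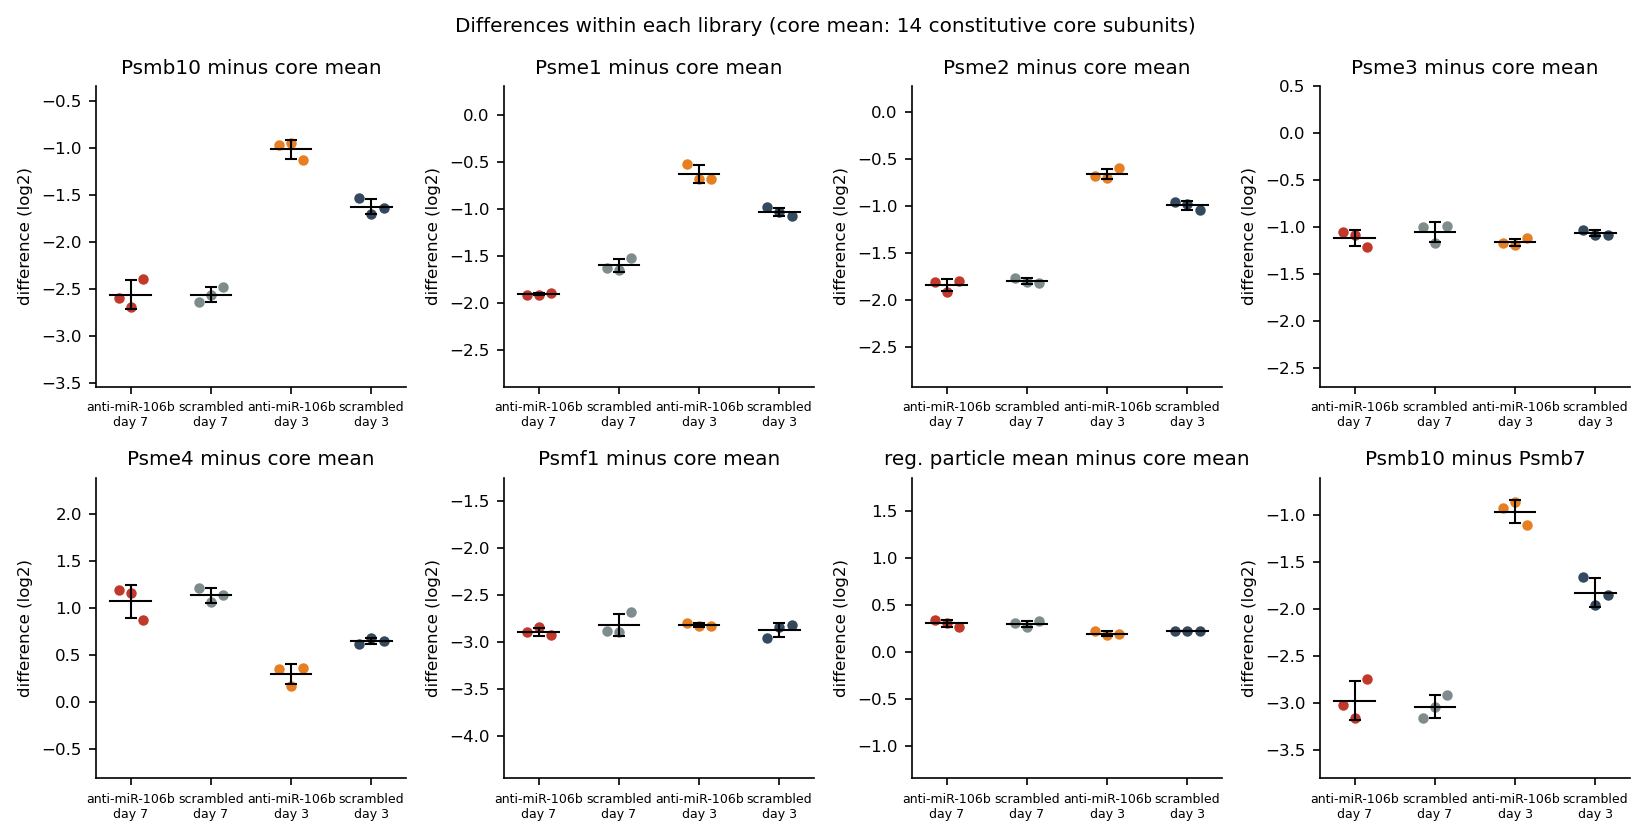
Differences within each library on the log2 scale (vertical axis) in the 4 groups, against the mean of the 14 constitutive core genes for Psmb10, Psme1 to Psme4, Psmf1 and the regulatory particle mean, and against Psmb7 for Psmb10; points are libraries, lines are means and bars are SD (n = 3). The anti-miR-106b and scrambled libraries at day 3 are apart for Psmb10 and for Psme1 to Psme4, with Psme3 and Psme4 lower in anti-miR-106b muscles, and overlap for Psmf1 and the regulatory particle mean.

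The direction of these calls went together with genes of the antigen processing and interferon lists. In anti-miR-106b against scrambled muscles at day 3, 10 of the 11 tested genes of antigen processing with the immunoproteasome rose (Tapbp by 0.58 ± 0.07, Psmb9 by 0.82 ± 0.12; 3 of the 11 are the members Psmb10, Psme1 and Psme2), and so did 13 of 14 interferon-induced genes (median 0.82), among them Ifit3 (1.07 ± 0.13) and the ubiquitin-like modifier Isg15 (1.20 ± 0.18). The summed level of the interferon-induced genes was 1006 to 1112 CPM in anti-miR-106b and 534 to 599 CPM in scrambled muscles at day 3. None of these lists was independent of the proteasome genes, since all were drawn up with earlier results of these data known.

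Marker genes of several cell types moved with the same groups. Of 15 macrophage genes, 8 rose at day 3 (Aif1 by 1.11 ± 0.20, the complement genes C1qa by 0.77 ± 0.17 and C1qb by 0.82 ± 0.18), and their sum was 6088 to 6615 CPM in anti-miR-106b and 4401 to 4516 CPM in scrambled muscles. Of 6 tested T and NK cell genes 2 rose, on sums of 19.2 to 25.3 CPM in anti-miR-106b and 12.7 to 13.5 CPM in scrambled muscles. None of 4 tested neutrophil genes passed, with sums of 39.2 to 52.8 CPM in anti-miR-106b and 32.4 to 43.2 CPM in scrambled muscles, and Cxcr2 was at 0 reads in at least 1 library. Of the muscle fibre genes 13 of 14 fell (Pygm by -0.86 ± 0.10, Tnnc2 by -0.70 ± 0.09, Eno3 by -0.72 ± 0.10; 4 of 14 with quantile normalization), while 7 of 12 genes of regenerating fibres and myoblasts rose, among them the cadherin gene Cdh15 (0.61 ± 0.07). Of fibroblast genes 4 of 10 rose, of endothelial genes 3 of 8 and of cell division genes 4 of 12, and none fell. Over all genes tested, 16.3% rose and 19.4% fell. The part of these cells in the changes of proteasome genes was not tested.

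At day 7 none of the 40 proteasome genes passed in limma at an adjusted p below 0.05, against 0.064% of all genes tested (0.00711% higher and 0.0569% lower). Over all genes tested 1 was higher and 8 were lower, which became 216 and 241 without scrambled replicate 1 at day 7 and 58 and 12 without anti-miR-106b replicate 2 at day 7, and the proteasome genes stayed at 0 in both. Scrambled replicate 1 also differed most from the other libraries of its group, with a chi-square of counts per gene of 39.4 and 52.8 against 21.5 between the other 2. Before adjustment 6 of the 40 had a p below 0.05, against 11.2% of all genes. No proteasome gene passed under any of the other settings either, including the library weights and the scalings. Of the 40 log2 fold changes 39 were positive, with a median of 0.09 against 0.01 over all genes tested; with total-count scaling 35 were positive and with quantile normalization 28. At day 7, 29 were positive without scrambled replicate 3 and 30 without anti-miR-106b replicate 3. With the authors' factors all 15 core genes and all 17 regulatory particle genes were above 0, with medians of 0.11 and 0.09, which became 0.03 and 0.04 without scrambled replicate 3. The groups did not overlap in 6 genes that were higher and 1 that was lower in anti-miR-106b muscles, against 5.18% higher and 5.69% lower of all genes (10.9% in either direction).

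The gene that was lower was Psme1, with 5.24, 5.20 and 5.39 log2 CPM in anti-miR-106b and 5.49, 5.54 and 5.44 in scrambled muscles at day 7, a log2 fold change of -0.21 ± 0.07 (limma adjusted p = 0.277). Psme2 had 5.33, 5.20 and 5.48 log2 CPM in anti-miR-106b and 5.35, 5.37 and 5.13 in scrambled muscles at day 7, which overlapped (0.05 ± 0.08, adjusted p = 0.85). Within libraries, Psme1 minus Psme2 was -0.10, 0.01 and -0.09 in anti-miR-106b and 0.14, 0.17 and 0.31 in scrambled muscles at day 7, which did not overlap. At day 3 it was 0.16, 0.03 and -0.08 in anti-miR-106b and -0.02, -0.05 and -0.03 in scrambled muscles, which did. The 2 genes are neighbours on chromosome 14 (GRCm38, GENCODE M21), Psme1 at chr14:55578123-55581529 on the plus strand and Psme2 at chr14:55587441-55591113 on the minus strand, 5911 bases apart.

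The highest fold change at day 7 was that of Psmd8, a lid subunit, with 8.54, 8.29 and 8.56 log2 CPM in anti-miR-106b and 8.22, 8.30 and 8.05 in scrambled muscles at day 7 (0.27 ± 0.08, limma adjusted p = 0.229). Only replicate 2 of the anti-miR-106b libraries lay within the range of the scrambled ones. The immune subunit Psmb10, apart at day 3, had 4.54, 4.42 and 4.89 log2 CPM in anti-miR-106b and 4.48, 4.61 and 4.49 in scrambled muscles at day 7, with overlap (0.10 ± 0.11, adjusted p = 0.792). The activator Psme4 had 8.33, 8.27 and 8.15 log2 CPM in anti-miR-106b and 8.33, 8.23 and 8.09 in scrambled muscles at day 7. Psme3 had 6.09, 6.04 and 6.08 log2 CPM in anti-miR-106b and 6.13, 6.01 and 5.97 in scrambled muscles at day 7. Both overlapped (0.03 and 0.03).

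The effect of the inhibitor differed between days for 4 of the 40 genes by a test of the difference itself, the effect at day 7 minus the effect at day 3. It was lower at day 7 than at day 3 for Psme1 (-0.68 ± 0.10, limma adjusted p = 0.000993), Psmb10 (-0.57 ± 0.15, adjusted p = 0.015) and Psme2 (-0.34 ± 0.11, adjusted p = 0.0418), and higher for Psme4 (0.32 ± 0.11, adjusted p = 0.0414). Over all genes tested, 13.2% were higher and 9.07% lower, 22.3% in either direction. The calls for Psme1 and Psmb10 held under each of the 23 alternatives, while those for Psme2 and Psme4 were lost in 13 of 23, with adjusted p of up to 0.102 and 0.420. For Psme2 these include leaving out any library but replicate 3 of either arm at day 7. For Psme4 they include anti-miR-106b replicates 1 or 2 and scrambled replicates 2 or 3 at day 7, and replicates 2 or 3 of either arm at day 3. With a replicate block the call for Psme2 was lost, leaving 2 genes lower and 1 higher. No core gene other than Psmb10 passed, and none of the regulatory particle genes.

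Between the days, in both arms, Psmb10, Psme1, Psme2 and the alpha ring gene Psma5 fell and Psme4 rose under every scaling. The chaperones Psmd5 and Psmd10 had negative values with the authors', total-count, quantile and median-of-ratios scaling, not all of which passed. Most genes of the regulatory particle and part of the core rose with the authors' scaling and lay lower at day 7 with total-count scaling. In anti-miR-106b muscles at day 7 against day 3, 23 of the 40 genes rose and 6 fell, against 37.9% and 40.8% of all genes tested (78.7% in either direction). In scrambled muscles 21 rose and 5 fell, against 32.9% and 35.3% (68.2% in either direction). Median log2 fold changes of the 40 genes were 0.21 and 0.19 in anti-miR-106b and scrambled muscles, against -0.02 and 0.00 over all genes tested. The direction of most of these genes depends on the scaling. With total-count scaling the median of all genes was -0.67 in anti-miR-106b and -0.42 in scrambled muscles. Then 1 of the 40 genes rose and 35 fell in anti-miR-106b muscles, against 2152 and 9745 of all 14191 genes tested. In scrambled muscles 1 rose and 27 fell, against 1519 and 8711 of all genes, so falls prevailed in the whole table too. With quantile normalization 11 of the 40 rose and 16 fell in anti-miR-106b muscles, against 6462 and 4797 of all 14063 genes tested. In scrambled muscles 12 rose and 9 fell with this scaling, against 6079 and 3939 of all genes. The days did not overlap in 28 genes that were higher and 6 that were lower at day 7 in anti-miR-106b muscles, against 39.5% and 41.7% of all genes (81.1% in either direction). In scrambled muscles they did not overlap in 23 that were higher and 5 that were lower, against 34.9% and 37.5% (72.4% in either direction). The comparisons of the arms share no library.

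Of the 17 regulatory particle genes, 13 rose in anti-miR-106b and 11 in scrambled muscles at day 7 and none fell. Of all genes tested, 37.9% rose and 40.8% fell in anti-miR-106b and 32.9% and 35.3% in scrambled muscles. The regulatory particle medians of 0.27 and 0.26 turn negative with total-count scaling (-0.35 and -0.15, which is above the all-gene medians of -0.67 and -0.42). In anti-miR-106b muscles the median is negative with quantile normalization too (-0.07). The lid subunit Psmd6 had 7.42, 7.44 and 7.52 log2 CPM in anti-miR-106b and 7.41, 7.52 and 7.42 in scrambled muscles at day 7, and 6.83, 6.82 and 6.85 in anti-miR-106b and 6.88, 7.00 and 7.00 in scrambled muscles at day 3. Every library at day 7 lay above every library at day 3, with log2 fold changes of 0.62 ± 0.06 (limma adjusted p = 2.43e-07) in anti-miR-106b and 0.49 ± 0.06 (adjusted p = 6.26e-06) in scrambled muscles, which became 0.00 and 0.08 on the total-count scale. Psmd12, another lid subunit, changed by 0.65 ± 0.06 and 0.42 ± 0.06, the ATPase Psmc6 by 0.46 ± 0.05 and 0.27 ± 0.05, and the scaffold Psmd1 by 0.48 ± 0.07 and 0.33 ± 0.07. With total-count scaling the calls for Psmd12 were lost (limma adjusted p = 0.711 and 0.876), and the values of Psmc6 and Psmd1 were negative. Psmd7, which pairs with the deubiquitinase Psmd14 in the lid, changed by 0.43 ± 0.07 and 0.43 ± 0.07, and Psmd14 itself, which did not pass, had 0.10 and 0.07.

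The ATPase Psmc2 had 7.43, 7.38 and 7.46 log2 CPM in anti-miR-106b and 7.34, 7.39 and 7.14 in scrambled muscles at day 7, and 7.02, 6.98 and 7.01 in anti-miR-106b and 6.99, 6.93 and 6.99 in scrambled muscles at day 3. Psmc3, the ATPase with the lowest fold change in scrambled muscles, had 8.21, 8.24 and 8.38 log2 CPM in anti-miR-106b and 8.22, 8.27 and 8.10 in scrambled muscles at day 7, and 8.29, 8.27 and 8.18 in anti-miR-106b and 8.16, 8.11 and 8.10 in scrambled muscles at day 3. Psmc2 rose by 0.42 ± 0.07 and 0.33 ± 0.07 in anti-miR-106b and scrambled muscles (limma adjusted p = 4.69e-05 and 0.000656), without overlap between days, whereas Psmc3 overlapped between days in both arms (0.03 and 0.07, not passing). Of the lid subunits Psmd8 passed in anti-miR-106b muscles alone with the authors' scaling (0.27 ± 0.08, adjusted p = 0.00758). In scrambled muscles it changed by 0.04 ± 0.08, with 8.22, 8.30 and 8.05 log2 CPM at day 7 and 8.16, 8.14 and 8.16 at day 3. The difference between arms did not pass (0.23 ± 0.12, adjusted p = 0.161). With total-count scaling Psmd8 fell in anti-miR-106b and scrambled muscles (-0.35 and -0.37, limma adjusted p = 0.000251 and 0.000254). With quantile normalization it fell in scrambled muscles (-0.18, adjusted p = 0.0215) and did not pass in anti-miR-106b muscles (-0.083). Psmc1, Psmc5, Psmd3, Psmd4 and Psmd11 rose in both arms, by 0.19 to 0.38 in anti-miR-106b and 0.21 to 0.33 in scrambled muscles; these values and those of Psmc2 are negative with total-count scaling. The call for Psmd11 in scrambled muscles was lost in 9 of 24 alternatives, among them without scrambled replicates 1 or 2 at day 7 and without any 1 of the scrambled replicates at day 3 (adjusted p of up to 0.713). In anti-miR-106b muscles the calls for Psmc1 and Psmd3 were lost without anti-miR-106b replicate 3 at day 7 or at day 3. Psmd2 rose in anti-miR-106b muscles (0.19, adjusted p = 0.0377), a call lost in 8 of 24 alternatives (adjusted p of up to 0.945), among them without anti-miR-106b replicates 1 or 3 at day 7, anti-miR-106b replicates 2 or 3 at day 3 or scrambled replicate 3 at day 3. Not counted as lost, Psmd2 fell in these muscles with total-count scaling (-0.43, limma adjusted p = 1.81e-05) and with quantile normalization (-0.16, adjusted p = 0.0279). Psmc4 and Psmd13 passed in neither arm.

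**Figure D4:**
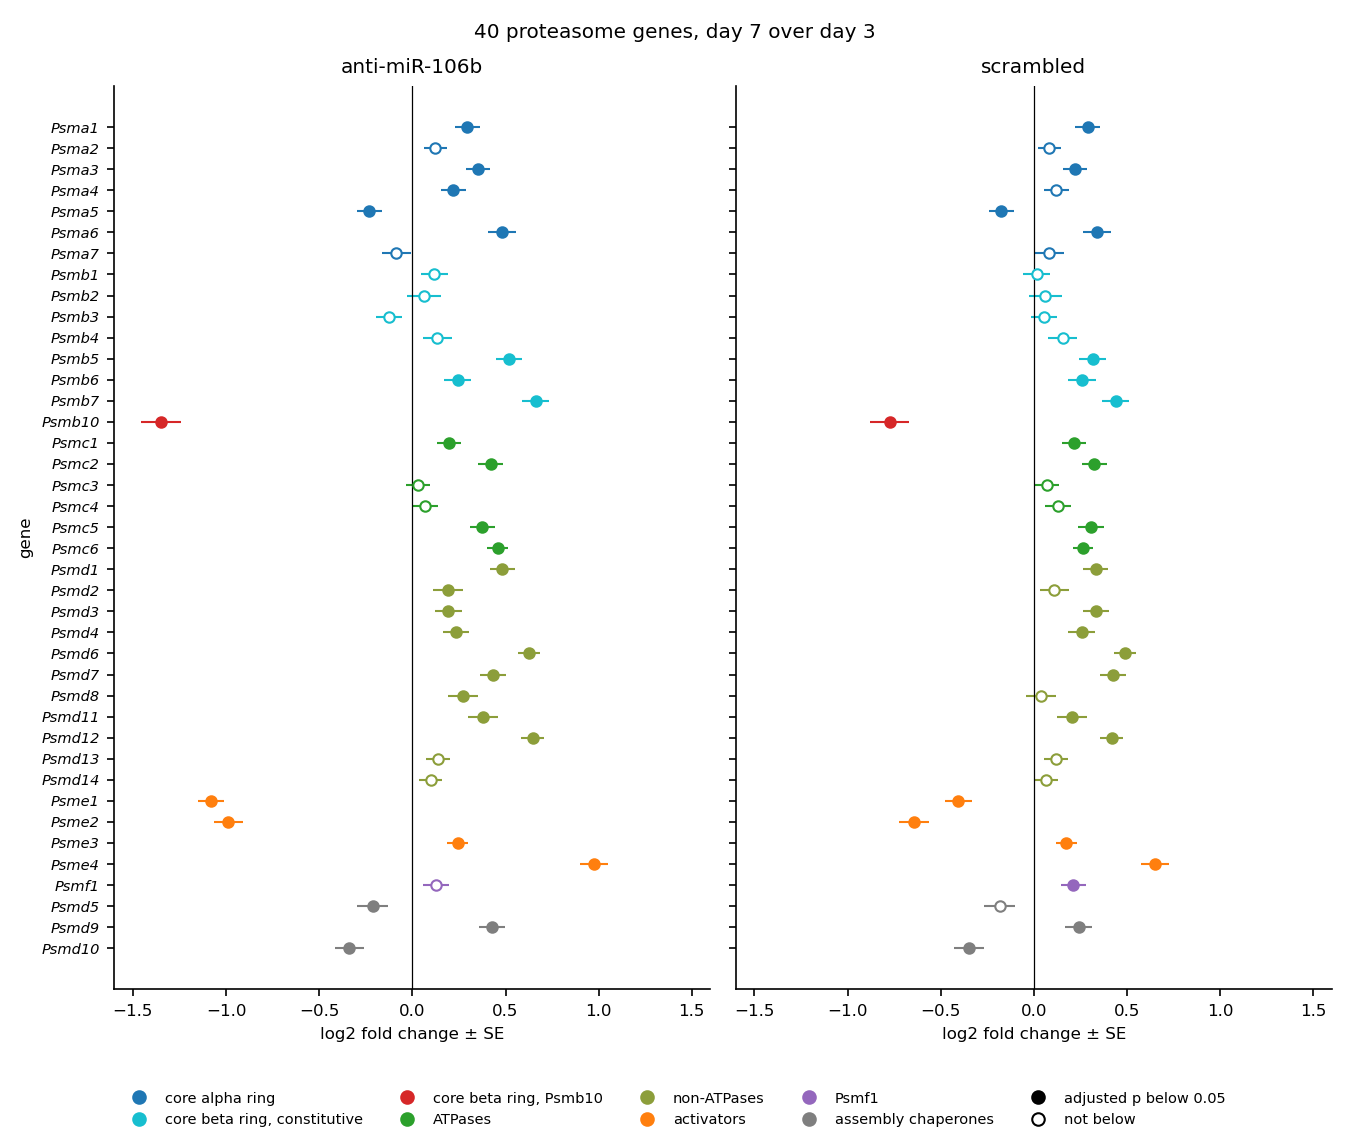
Log2 fold change of day 7 over day 3 (horizontal axis, bars are SE) for each of the 40 genes in anti-miR-106b muscles on the left and scrambled muscles on the right, coloured by class; filled points passed limma at an adjusted p below 0.05. Psmb10, Psme1 and Psme2 lie at the lower end of both panels (-1.35, -1.08 and -0.99 in anti-miR-106b and -0.77, -0.40 and -0.64 in scrambled muscles) and Psme4 at the upper end (0.97 and 0.65). With total-count scaling these 4 keep their direction and most other values are negative.

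Of the 15 core genes, 7 rose and 2 fell in anti-miR-106b muscles, against 37.9% and 40.8% of all genes tested. In scrambled muscles 6 rose and 2 fell, against 32.9% and 35.3% of all genes tested. The core medians of 0.13 and 0.12 become -0.49 and -0.29 with total-count scaling and -0.14 and -0.08 with quantile normalization. Psmb7 had 7.56, 7.58 and 7.64 log2 CPM at day 7 against 6.95, 6.92 and 6.92 at day 3 in anti-miR-106b muscles, and 7.64, 7.65 and 7.40 against 7.03, 7.21 and 7.14 in scrambled muscles. It had the highest fold change of the core genes in both arms, 0.66 ± 0.07 (limma adjusted p = 1.25e-06) and 0.44 ± 0.07 (adjusted p = 0.000114), without overlap between days. Both Psmb7 calls were lost with total-count scaling (adjusted p = 0.545 and 0.618). Psmb5 changed by 0.52 ± 0.07 and 0.31 ± 0.07 and Psmb6 by 0.24 ± 0.07 and 0.26 ± 0.07 in anti-miR-106b and scrambled muscles, and these values are negative with total-count scaling. In the 6 libraries at day 7 Psmb5 had 7.30, 7.34 and 7.57 log2 CPM with anti-miR-106b and 7.37, 7.41 and 7.35 log2 CPM with the scrambled inhibitor, all above the 6 libraries at day 3.

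Of the alpha ring, Psma6 had 7.34, 7.33 and 7.44 log2 CPM in anti-miR-106b and 7.33, 7.37 and 7.09 log2 CPM in scrambled muscles at day 7, all above its levels at day 3 (0.48 and 0.34), and Psma1 and Psma3 also rose in both arms. Psma4 rose in anti-miR-106b muscles (0.22, limma adjusted p = 0.00689) and had 0.12 in scrambled muscles (adjusted p = 0.116). These alpha ring values, too, are negative with total-count scaling. Psma5 went the other way, with 6.32, 6.21 and 6.43 log2 CPM in anti-miR-106b and 6.16, 6.31 and 6.14 in scrambled muscles at day 7, and 6.57, 6.56 and 6.53 in anti-miR-106b and 6.39, 6.36 and 6.39 in scrambled muscles at day 3. It fell by 0.23 and 0.18 on the log2 scale in anti-miR-106b and scrambled muscles (adjusted p = 0.00577 and 0.0315), and the second call was lost under 6 of 24 alternatives, among them without scrambled replicates 1 or 3 at day 7 and without any 1 of the scrambled replicates at day 3 (adjusted p of up to 0.0979). Psma2, Psma7, Psmb1, Psmb2, Psmb3 and Psmb4 passed in neither arm. Psmb1, with the lowest value of the constitutive beta genes in scrambled muscles, had 7.44, 7.39 and 7.62 log2 CPM in anti-miR-106b and 7.32, 7.43 and 7.19 in scrambled muscles at day 7, and 7.39, 7.36 and 7.36 in anti-miR-106b and 7.31, 7.31 and 7.27 in scrambled muscles at day 3, and the days overlapped in scrambled but not in anti-miR-106b muscles (log2 fold changes of 0.02 and 0.12).

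Psmb10 had the largest fall of the 40 genes in both arms, by 1.35 on the log2 scale in anti-miR-106b and 0.77 in scrambled muscles (limma adjusted p = 3.85e-08 and 2.03e-05). Psme1 fell by 1.08 and 0.40 and Psme2 by 0.99 and 0.64 (adjusted p = 6.52e-09 to 0.000174). Psme4 rose by 0.97 ± 0.07 and 0.65 ± 0.07 (adjusted p = 3.17e-08 and 4.52e-06), with 8.33, 8.27 and 8.15 log2 CPM in anti-miR-106b and 8.33, 8.23 and 8.09 log2 CPM in scrambled muscles at day 7 against no library above 7.61 at day 3. These 4 genes kept direction and call under all 24 alternatives in both arms, total-count scaling included. Psme3 rose by 0.24 and 0.17 (adjusted p = 0.00116 and 0.0133, the second lost without scrambled replicate 1 at day 7). Both calls were lost with quantile normalization. With total-count scaling Psme3 fell in anti-miR-106b and scrambled muscles (-0.38 and -0.23, limma adjusted p = 1.60e-05 and 0.00164). Against the core mean of its own library it moved by 0.05 ± 0.05 and 0.01 ± 0.06, with overlap.

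Taken within libraries, Psme1 minus Psme4 was -3.09, -3.07 and -2.76 in anti-miR-106b and -2.84, -2.70 and -2.65 in scrambled muscles at day 7, against -0.87, -0.84 and -1.04 in anti-miR-106b and -1.59, -1.70 and -1.72 in scrambled muscles at day 3. The 4 groups did not overlap except for those of day 7. The regulatory particle mean minus the core mean was 0.35, 0.32 and 0.27 in anti-miR-106b and 0.32, 0.27 and 0.33 in scrambled muscles at day 7, against 0.22, 0.18 and 0.20 in anti-miR-106b and 0.23, 0.22 and 0.23 in scrambled muscles at day 3. In both arms every library at day 7 lay above every library at day 3, by 0.11 ± 0.03 and 0.08 ± 0.02 (SE), a difference that a factor for each library cannot move.

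The genes that carry proteasome symbols without being subunits differed among themselves. Psmd10, an assembly chaperone also known as an oncoprotein in liver, fell by 0.34 and 0.35 between days in anti-miR-106b and scrambled muscles (limma adjusted p = 0.00129 and 0.00141). Its call in anti-miR-106b muscles was lost with quantile normalization (adjusted p = 0.133). The chaperone Psmd9 rose by 0.43 and 0.24 (adjusted p = 8.48e-05 and 0.00912), but fell in both arms with total-count scaling, and Psmd5 fell in anti-miR-106b muscles (by 0.21, adjusted p = 0.0318, lost in 5 of 24 alternatives, among them without anti-miR-106b replicate 2 at day 7 or any 1 anti-miR-106b replicate at day 3; -0.18 in scrambled muscles, adjusted p = 0.067). Psmf1 had 4.25, 4.27 and 4.35 log2 CPM in anti-miR-106b and 4.23, 4.28 and 4.27 in scrambled muscles at day 7, and 4.20, 4.17 and 4.12 in anti-miR-106b and 3.94, 4.10 and 4.11 in scrambled muscles at day 3. It rose in scrambled muscles (0.21, adjusted p = 0.0147, not so without scrambled replicate 1 at day 3) and did not pass in anti-miR-106b muscles (0.13). With total-count scaling Psmf1 fell in scrambled (-0.19, adjusted p = 0.0189) and in anti-miR-106b muscles (-0.50, adjusted p = 9.95e-06). At day 3 none of these 4 genes passed for the inhibitor, with log2 fold changes of -0.10 to 0.13.

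**Figure D5:**
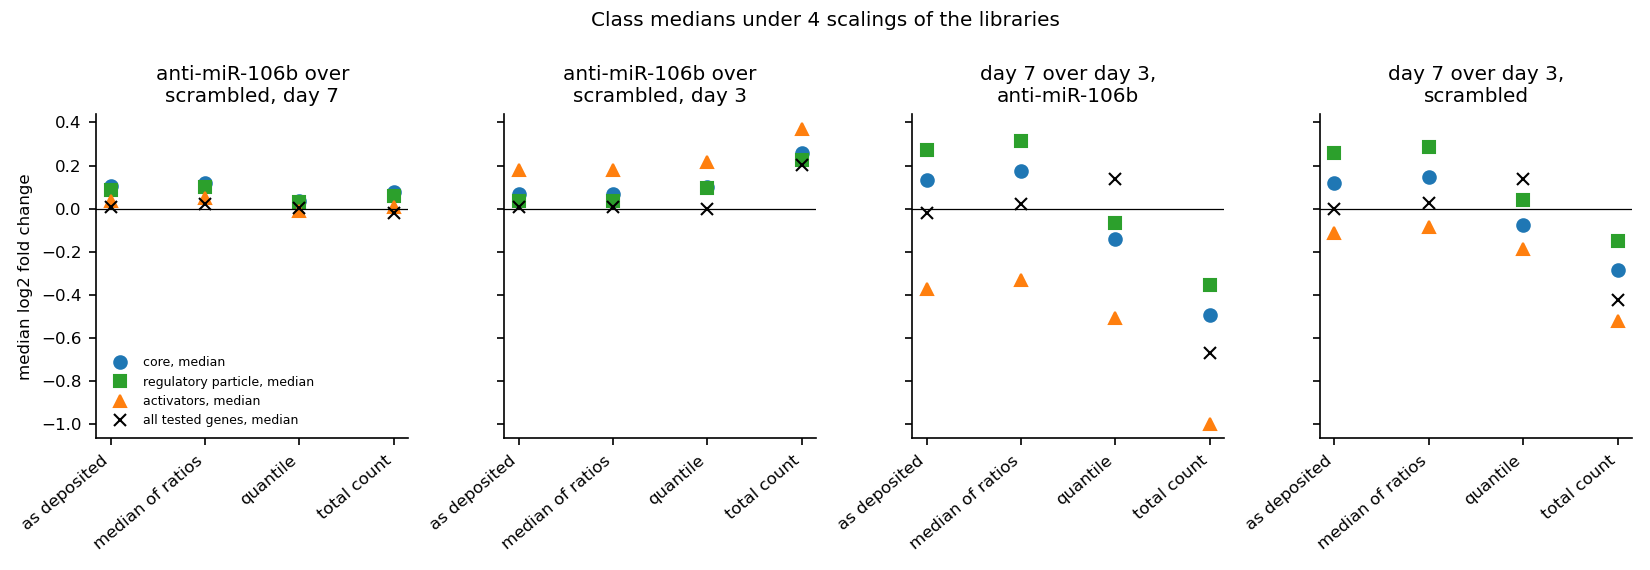
Median log2 fold change (vertical axis) of the 15 core genes (circles), the 17 regulatory particle genes (squares), the 4 activators (triangles) and all genes tested (crosses) in the 4 comparisons under 4 scalings: the authors' own, total-count, quantile and median-of-ratios. Between days the core and regulatory particle medians are positive with the authors' and the median-of-ratios scaling and negative with total-count scaling, where the medians of all genes lie lower still.

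Over the same days most marker lists moved by larger amounts. The endothelial list did not in anti-miR-106b muscles, with a median of 0.15 and 4 of 8 genes higher and 2 lower. In scrambled muscles its median was 0.69, with 6 of 8 higher and 0 lower. Of 4 tested neutrophil genes 3 fell in anti-miR-106b and 1 in scrambled muscles. Of 6 tested T and NK cell genes 5 fell in anti-miR-106b muscles, and 4 fell and 1 rose in scrambled muscles. All 14 interferon-induced genes fell in each arm, with medians of -3.59 in anti-miR-106b and -2.55 in scrambled muscles (in scrambled muscles Ifit2 -3.20, Ifit3 -2.80 and Oasl2 -3.03). Their sums were 86.8 to 104 CPM in anti-miR-106b and 90.6 to 126 CPM in scrambled muscles at day 7. All 15 macrophage genes fell in each arm, with a median of -2.65 in scrambled muscles (Csf1r -2.42, Cd68 -2.99 and Adgre1 -2.65), and summed to 532 to 886 CPM in anti-miR-106b and 508 to 798 CPM in scrambled muscles at day 7. Of 11 antigen processing genes 10 fell in anti-miR-106b and 11 in scrambled muscles, where Tapbp and B2m changed by -1.25 and -1.58. Of 14 fibre genes 13 rose in anti-miR-106b and 14 in scrambled muscles (5 and 6 with quantile normalization), while all 12 genes of regenerating fibres, all 12 of cell division and 9 of 10 fibroblast genes fell in both arms. The part of these cells in the changes of the proteasome genes between days was not tested.

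Of the genes that work next to the proteasome, the assembly chaperones rose in 2 of 8 at day 3 in anti-miR-106b against scrambled muscles, Psmg4 by 0.35 ± 0.12 and Psmg3 by 0.26 ± 0.10 (limma adjusted p = 0.0371 and 0.0486), and in 7 of 8 with total-count scaling. Over all genes tested, 16.3% rose and 19.4% fell in this comparison. With total-count scaling 5189 rose and 1377 fell of all 14191 genes tested. The counts for these short lists are to be read beside those shares. Of 13 ubiquitin receptors, deubiquitinases and other factors that dock on the proteasome, 3 fell: Ecpas, a scaffold that binds the assembled enzyme, by 0.43, the shuttle factor Ubqln4 by 0.37 and the deubiquitinase Uchl5 by 0.19 on the log2 scale (adjusted p = 0.000804, 0.00541 and 0.031). With total-count scaling 5 of the 13 rose and 1 fell, and the median of -0.06 became 0.13. Of 11 genes that control proteasome transcription, 3 fell, namely Nfe2l1 (-0.36 ± 0.09), the main transcription factor that raises subunit genes when the proteasome is inhibited, Ngly1 (-0.33 ± 0.08), the glycanase that processes it, and the NF-Y subunit Nfyb (-0.35 ± 0.08). Nfe2l2, its relative, rose (0.24 ± 0.07, adjusted p = 0.0143). With total-count scaling 5 of these 11 rose and 0 fell.

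Between days, Ecpas rose by 0.91 and Ubqln4 by 0.46 in scrambled muscles, where 6 of the 13 docking factors rose and 0 fell; in anti-miR-106b muscles 9 rose and 0 fell. With total-count scaling 2 rose and 8 fell in each arm. Of all genes tested, 32.9% rose and 35.3% fell in scrambled and 37.9% rose and 40.8% fell in anti-miR-106b muscles. With total-count scaling 1519 rose and 8711 fell of 14191 in scrambled muscles, and 2152 rose and 9745 fell in anti-miR-106b muscles. Nfe2l1 rose by 0.66 and Nfyb by 0.65 in scrambled muscles, and Nfya, Bach1 and Nfe2l2 fell (-0.74, -0.54 and -0.42), among 5 that rose and 4 that fell of 11. At day 7 no gene of any of these lists passed for the inhibitor.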

How the data were processed

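Libraries came from whole-muscle total RNA, prepared with Illumina's TruSeq RNA chemistry per the labels' protocols. The authors deposited 1 table of log2 CPM for 28116 gene symbols in 12 libraries. The submitters' processing notes name build mm10, limma 3.34.9, edgeR 3.20.9, featureCounts, STAR, Trim Galore 0.4.3.1 and FastQC 0.72. Their order, settings and use of strand are not given in the sources used here. Reads of overlapping genes on opposite strands can therefore not be told apart, and 19 of the 40 members overlap another annotated gene (GENCODE M21, GRCm38). Removing the logarithm from the deposited log2 values gave back whole reads within 0.001 for 100% of values, with a prior of 0.25 reads on average; 1 read equals 0.0213 to 0.0356 CPM.

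The deposited log2 CPM were fitted with limma 3.58.1 in R 4.3.3, with 1 mean for each group, all 12 libraries and a trended prior variance (8 residual and 5.59 prior degrees of freedom). Genes with at least 1 CPM in at least 3 libraries were tested (14063). Tests were two-sided, p-values were adjusted over all genes tested by the Benjamini-Hochberg method, and the threshold was an adjusted p of 0.05. The fit was run on simulated counts with few changed genes and the same dispersion for all genes. Such a check does not cover the many changes called here.

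The alternatives were total-count, quantile and median-of-ratios scaling, a filter at 0.5 CPM or none, 1 CPM added, a prior without trend, voom weights, library weights, only the groups compared, a replicate block, each library left out in turn and scaling to the core genes. Members and lists were chosen with earlier results of these data known. Values per library are given for the catalytic subunits, the activators, Psmf1 and, in each class, the genes with the highest and lowest fold change of the inhibitor at day 3 and of day 7 over day 3 in scrambled muscles. From other lists, up to 3 genes with the smallest p are named, some of which are not reported here; Nfe2l2 was named after its values were seen. 3′ UTRs and positions are from GENCODE M21, promoters and the microRNA from RefSeq (GRCm38.p6).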

Additional observations from a re-analysis of the deposited data

Results flagged for a closer look

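The effect of anti-miR-106b against scrambled differed between day 7 and day 3 for 4 of the 40 proteasome genes, against 22.3% of all genes tested. The test was limma's, of the difference of the effects (day 7 minus day 3). The difference on the log2 scale was -0.68 for the activator subunit Psme1, -0.57 for the immune subunit Psmb10, -0.34 for the activator subunit Psme2 and 0.32 for the activator Psme4. For Psme1 the fold change was negative at day 7 without passing and positive at day 3. For the other 3 the value at day 7 was near 0. The calls for Psme2 and Psme4 were each lost in 13 of 23 alternatives, while those for Psme1 and Psmb10 held in all.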

How the results depend on the processing

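All counts here are of the 40 proteasome genes. Counts over all genes with total-count and quantile scaling are given above for the inhibitor at day 3 and for day 7 over day 3. For anti-miR-106b against scrambled at day 3, 5 genes rose with the authors' scaling, 33 with total-count scaling, 12 with quantile normalization, 14 with library weights and 10 with only the 2 groups in the fit, and 4 to 8 on leaving out 1 library (8 without scrambled replicate 3 at day 7). The 1 gene that fell became 0 with total-count scaling, 2 with median-of-ratios scaling, 1 CPM added or voom weights, 5 with library weights, 3 with only the 2 groups in the fit, 4 when scaled to the 14 constitutive core genes, and 1 to 2 on leaving out 1 library. Scaling to the core genes was chosen after seeing the data. At day 7 the counts were 0 higher and 0 lower under every alternative. For the effect at day 7 minus that at day 3, the 1 higher gene became 0 to 2 on leaving out 1 library. It became 0 with total-count scaling, quantile normalization, no filter, a prior without trend or scaling to the core genes. The 3 lower genes became 14 with total-count scaling and 5 with quantile normalization or library weights. They became 2 with no filter, a prior without trend or the replicate block, and 2 to 3 on leaving out 1 library. Over all 14063 genes tested, 1858 were higher and 1276 lower with the authors' scaling, and 2801 and 2533 with library weights. The counts were 2129 and 1686 with quantile normalization, and 866 and 3501 of 14191 with total-count scaling. For day 7 over day 3 in anti-miR-106b muscles, 23 higher genes became 1, 11 and 13 and 6 lower genes became 35, 16 and 10 with total-count, quantile and core scaling (20 to 24 and 5 to 7 on leaving out 1 library). In scrambled muscles 21 higher genes became 1, 12 and 10 under the same alternatives (19 to 26 on leaving out 1 library), and 5 lower genes became 27 and 9 with total-count and quantile scaling (4 to 5). The medians of all genes with total-count scaling are given above, and with quantile normalization those of day 7 over day 3 were 0.14 in each arm, against -0.022 and -0.0034 with the authors' scaling in anti-miR-106b and scrambled muscles; how much of the differences in calls follows from that was not tested.

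The replicate block changed no count but the one named, and the numbers do not pair the libraries: residuals of libraries with the same number had correlations across genes of -0.18 to 0.18.

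Reversed values are listed where a gene changed sign and passed in at least 1 of the 2 fits; genes that changed sign and passed in neither are not listed. With total-count scaling, log2 fold changes reversed at day 3 for Psmd12 0.14, Psma6 0.15, Psme3 0.16, Psma3 0.17 and Psmc5 0.17, and in the difference between days for Psmd7 -0.21. Day 7 over day 3 in anti-miR-106b muscles reversed for Psmc3 -0.60, Psmb2 -0.56, Psmc4 -0.56, Psmd14 -0.53, Psmb1 -0.51, Psma2 -0.50, Psmf1 -0.50, Psmb4 -0.49, Psmd13 -0.49, Psmd2 -0.43, Psmd3 -0.43, Psmc1 -0.43, Psma4 -0.41, Psmd4 -0.39, Psme3 -0.38, Psmb6 -0.38, Psmd8 -0.35, Psma1 -0.33, Psma3 -0.27, Psmc5 -0.25, Psmd11 -0.25, Psmc2 -0.21, Psmd9 -0.20, Psmd7 -0.19, Psmc6 -0.17, Psmd1 -0.14, Psma6 -0.14, Psmb5 -0.11 and Psmd6 -0.0011. In scrambled muscles it reversed for Psmb1 -0.39, Psmd8 -0.37, Psmb3 -0.35, Psmb2 -0.35, Psmd14 -0.34, Psmc3 -0.34, Psma7 -0.33, Psma2 -0.32, Psmd2 -0.30, Psmd13 -0.29, Psma4 -0.29, Psmc4 -0.28, Psmb4 -0.25, Psme3 -0.23, Psmd11 -0.20, Psmf1 -0.19, Psmc1 -0.19, Psma3 -0.19, Psmd9 -0.17, Psmd4 -0.15, Psmb6 -0.15, Psmc6 -0.14, Psma1 -0.12, Psmc5 -0.10, Psmb5 -0.093, Psmc2 -0.082, Psmd3 -0.076, Psmd1 -0.076 and Psma6 -0.070. With quantile normalization, day 7 over day 3 reversed in anti-miR-106b muscles for Psmc3 -0.31, Psmc4 -0.22, Psmb4 -0.20, Psmb1 -0.20, Psmb2 -0.19, Psmd2 -0.16, Psma2 -0.14, Psmd13 -0.13, Psmc1 -0.12, Psmd3 -0.10, Psmd4 -0.10, Psmd8 -0.083, Psmb6 -0.082 and Psma4 -0.060, and in scrambled muscles for Psmd8 -0.18, Psmb1 -0.17, Psmd2 -0.16 and Psmc3 -0.15. Scaling to the core genes reversed Psmc3 -0.17, Psmc4 -0.13, Psmd2 -0.0056 and Psmd3 -0.0040 in anti-miR-106b muscles and Psmb1 -0.15 in scrambled muscles. Depth of at least 28857739 reads per library put every member far above 1 read. How much of the spread between libraries comes from counting reads was not tested.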

Other observations

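Outside the proteasome and its regulators, genes of ubiquitin supply and protein folding were not described above. At day 3, 2 of 7 ubiquitin and activating enzyme genes rose in anti-miR-106b against scrambled muscles: Uba7, the activating enzyme of the modifier Isg15, by 0.83 ± 0.09, and Rps27a, which encodes ubiquitin fused to a ribosomal protein, by 0.47 ± 0.07 on the log2 scale (SE; limma adjusted p = 4.01e-05 and 0.000375; 5 of 7 with total-count scaling). Uba1, the main ubiquitin activating enzyme, did not pass (0.11 ± 0.07, adjusted p = 0.193). Of 14 cytosolic chaperone genes 5 rose and none fell, among them the chaperonin subunits Cct3 (0.31 ± 0.06) and Cct5 (0.20 ± 0.06) and Hsp90aa1 (0.37 ± 0.10), and 11 rose with total-count scaling. Over all genes tested at day 3, 16.3% rose and 19.4% fell, and with total-count scaling 5189 rose and 1377 fell of 14191. At day 7 none of either list passed for the inhibitor.

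Between day 7 and day 3 in scrambled muscles, Uba7 and Rps27a fell by 1.76 and 0.51, while the polyubiquitin gene Ubb rose by 0.36 (limma adjusted p = 6.63e-09, 2.83e-05 and 0.00163). Hsp90aa1 and Cct2 fell by 1.13 and 0.32, and the co-chaperone Bag3, which acts in the clearance of damaged contractile protein, rose by 0.60. Over both lists, 1 of 7 and 2 of 14 genes rose and 3 of 7 and 5 of 14 fell. With total-count scaling, 0 of 7 and 1 of 14 rose and 5 of 7 and 11 of 14 fell. Over all genes tested, 32.9% rose and 35.3% fell, and with total-count scaling 1519 rose and 8711 fell of 14191.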
